A study of Mus musculus with 38 samples.

Results

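The genes of voltage-gated and other cation channels were taken as all genes whose symbol begins with Kcn followed by a lower-case letter, with Cacn or with Scn and a digit, except Kcne2, among array probes that name exactly 1 gene. The rule gave 120 of 18820 genes: 34 Kv alpha subunits, 11 Kv auxiliary subunits, 15 inward rectifiers, 14 two-pore channels, 11 calcium- or sodium-activated potassium channel genes, 9 calcium channel pores, 4 alpha2delta, 2 beta and 8 gamma or TARP genes, 8 sodium channel pores, 3 sodium channel beta subunits and 1 other gene, Kcnrg. Cacna1d, an L-type calcium channel pore, was not analysed here because no probe named it alone. Where a gene had several such probes, the one of highest mean was used.

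The animals were C57BL/6J mice, an inbred strain, bred at UNC from stock close to Jackson Laboratory founders, and they received haloperidol, a D2 dopamine receptor blocker used against psychosis, or placebo from slow-release pellets over 30 days. The labels give no genetic modification and no age. Whole brain was measured in 10 haloperidol and 10 placebo mice and liver in 9 and 9, 1 array per mouse and tissue. Values are log2 expression values that the authors normalized with RMA, and a change is the haloperidol mean minus the placebo mean. "Passed" means a limma adjusted p under 0.05 (Benjamini-Hochberg over the 12547 genes tested in that tissue), and "rose" or "fell" is used of such genes only.

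Potassium channels set the resting potential and end action potentials, sodium channels carry their upstroke, and calcium channels turn them into transmitter release and calcium entry. Each voltage-gated channel has a pore-forming subunit, which carries the ions and the voltage sensor, and auxiliary subunits that alter its gating or its delivery to the membrane. Inward rectifiers and two-pore channels lack that voltage sensor and carry resting or receptor-regulated currents. Haloperidol is known to block the cardiac potassium channel encoded by Kcnh2, which underlies its effect on the electrocardiogram.

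RefSeq sequences upstream of the start site were available for 92 of the 120 genes. They are printed for 4 genes on which the results below turn: Kcnh2, the gene of the haloperidol-blocked channel; Kcnj6, which fell with the smallest p; and Kcnt2 and Kcnj8, the channel genes that rose. Each is the 250 bases before the most upstream annotated start (GRCm38.p6), read 5′ to 3′ along the gene, with GC boxes (GGGCGG, or CCGCCC on the other strand) in capitals. The windows are chr5:24329592-24329841, minus strand, for Kcnh2; chr16:94997697-94997946, minus strand, for Kcnj6; chr1:140245468-140245717, plus strand, for Kcnt2; and chr6:142571615-142571864, minus strand, for Kcnj8.
Kcnh2: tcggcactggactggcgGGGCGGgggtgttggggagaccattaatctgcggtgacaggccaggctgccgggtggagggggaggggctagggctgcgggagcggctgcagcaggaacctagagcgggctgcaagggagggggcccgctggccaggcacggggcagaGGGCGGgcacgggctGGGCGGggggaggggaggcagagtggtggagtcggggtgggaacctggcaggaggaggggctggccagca
Kcnj6: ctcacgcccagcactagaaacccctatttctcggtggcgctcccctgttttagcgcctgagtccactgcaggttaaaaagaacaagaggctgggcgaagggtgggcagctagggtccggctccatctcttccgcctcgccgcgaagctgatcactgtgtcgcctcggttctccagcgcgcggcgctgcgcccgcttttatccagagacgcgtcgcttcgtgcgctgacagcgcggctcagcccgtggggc
Kcnt2: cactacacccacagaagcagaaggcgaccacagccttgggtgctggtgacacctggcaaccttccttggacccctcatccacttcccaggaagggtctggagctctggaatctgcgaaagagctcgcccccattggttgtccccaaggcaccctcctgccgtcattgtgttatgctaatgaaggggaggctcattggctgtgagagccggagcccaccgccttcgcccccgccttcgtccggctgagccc
Kcnj8: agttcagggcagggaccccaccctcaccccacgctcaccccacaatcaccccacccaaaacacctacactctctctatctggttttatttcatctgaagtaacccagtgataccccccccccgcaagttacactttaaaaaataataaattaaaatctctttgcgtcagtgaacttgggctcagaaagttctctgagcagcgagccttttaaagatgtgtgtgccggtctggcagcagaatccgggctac

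Kcnh2 had 3 GC boxes and a GC content of 73.6%, and the other 3 windows had no GC box, with GC contents of 64.0% for Kcnj6, 61.6% for Kcnt2 and 49.2% for Kcnj8. A GC box was present in 43 of the 92 channel windows (46.7%) and in 33.0% of 27025 windows of the same length over all genes. It was present in 8 of 16 windows of channel genes that fell in brain (50.0%) and in 28 of 54 of those tested that did not pass (51.9%). The TATA box (TATAAA) was found in 2 channel windows (2.17%, against 13.0% of all) and the E-box (CACGTG) in 4 (4.35%, against 6.04%). The cAMP response element (TGACGTCA) and the RE1 motif were found in 0 channel windows, against 1.6% and 0.0629% of all. Both strands were searched, no 2 of these motifs contain one another, and a match says only that the letters are present.

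Several array-wide features moved with treatment or set single brain arrays apart. The median of all probes was lower with haloperidol, at 6.19 ± 0.072 (range 6.08 to 6.33) against 6.33 ± 0.044 (6.27 to 6.40) with placebo (SD, n = 10 each). Haloperidol 4T carried liver transcripts, with Alb at 11.11 against at most 4.51 on the other brain arrays, and placebo 1L and haloperidol 1R and 2N carried the most of the pituitary transcript Gh, at 11.49, 10.45 and 10.19. Of 5 neuron markers 0 passed: Snap25 was at 12.80 with placebo and 12.79 with haloperidol. Syt1 was at -0.17 (limma adjusted p = 0.0519) and Rbfox3 at -0.16 (0.0682), changes close in size to the channel median of -0.15. Stmn2 was at 0.10 (limma adjusted p = 0.207) and Nefl at -0.03 (0.689), so the 5 markers did not share a direction. After each array's median was subtracted from its values, 2 of the 5 passed as higher, Snap25 and Stmn2, against 32.6% of all genes. With the values as deposited 15.2% of all genes were called higher. Of 7 microglia markers 5 rose, and the mean of the 7 ran from 6.93 to 7.60 over the placebo arrays and from 7.38 to 8.14 over the haloperidol arrays. Also higher were 2 of 4 smooth muscle and pericyte, 1 of 4 endothelium and 1 of 3 oligodendrocyte markers, and the part of these shifts in the channel results was not tested. In liver, the defining marker Alb was at 13.19 with placebo and 13.22 with haloperidol. In whole tissue, fewer cells of a type and less RNA per cell cannot be told apart.

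In brain, 94 of the 120 channel genes were bright enough to be tested, and 24 of them fell while 2 rose. The pore classes, which held most of the genes tested, also held most of the falls. These were 4 of 7 calcium channel pores, 6 of 29 Kv alpha subunits, 5 of 9 two-pore channels, 3 of 9 calcium- or sodium-activated channel genes, 2 of 11 inward rectifiers and 2 of 6 sodium channel pores. The calcium- or sodium-activated class also includes BK beta subunits. Of the auxiliary genes, 1 of 2 calcium channel beta and 1 of 6 gamma or TARP genes fell, and 0 of 8 Kv auxiliary, 0 of 4 alpha2delta and 0 of 3 sodium channel beta genes passed in either direction. Over all genes, 15.2% were called lower and 15.2% higher, so 24 of 94 is above and 2 of 94 below that background. The median change was -0.15 over the channel genes and -0.02 over all genes tested, and 71 of the 94 channel genes (75.5%) had a negative change against 54% of all genes.

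The changes were small, from -0.44 to 0.38 on the log2 scale with the values as deposited, where the largest was 1.36-fold, and from -0.30 to 0.51 with each array's median subtracted. In 0 of the 94 channel genes were the groups free of overlap, as they were in 13 of all genes tested (0.104%). Of the 26 channel genes not tested, which were among the dimmest 33.3% of genes (mean below 5.52 on the brain arrays), 7 were tested in liver and 19 in neither tissue.

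**Figure D1:**
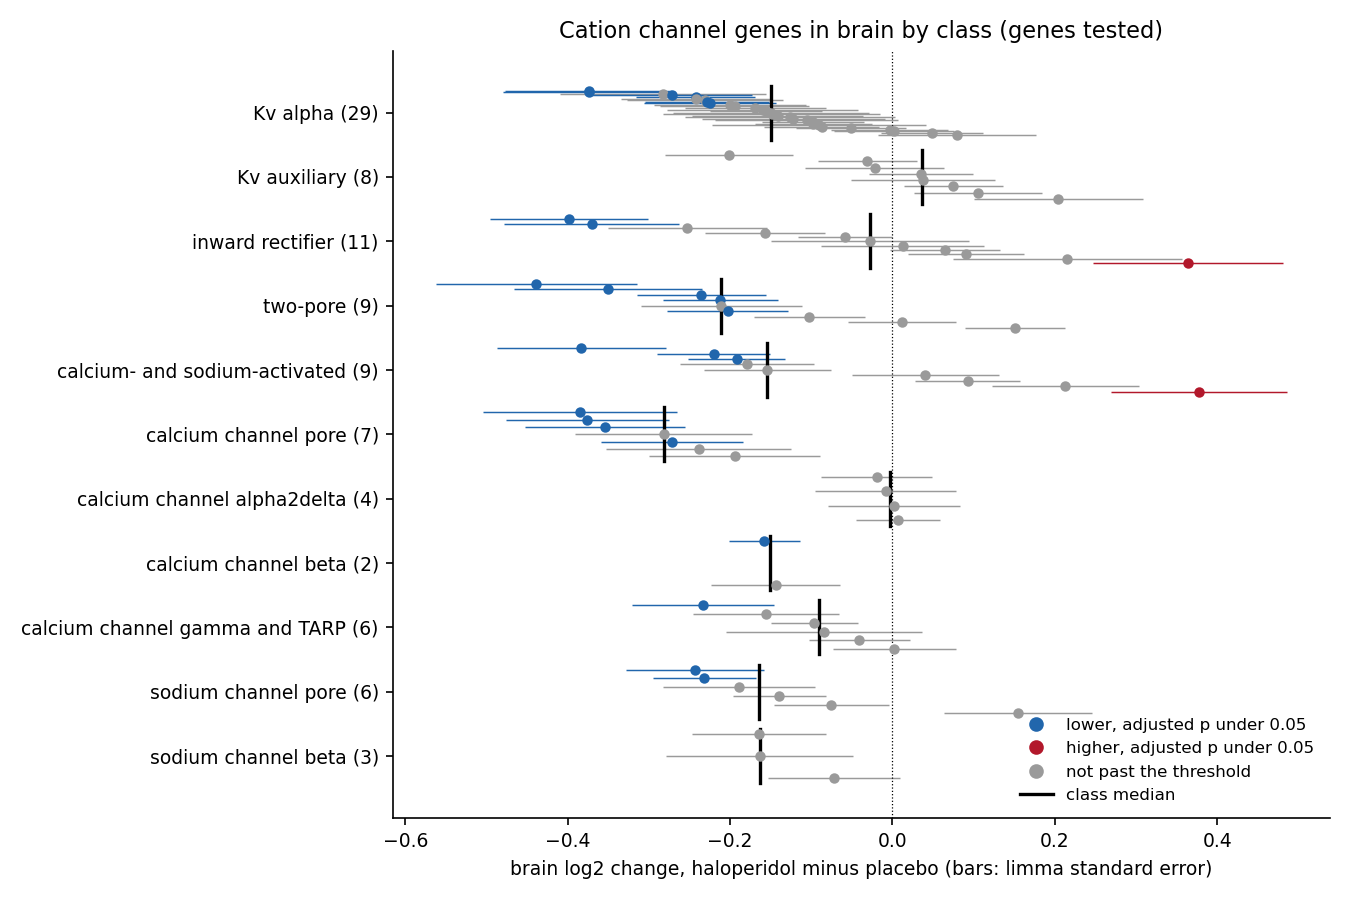
Change in brain (log2, haloperidol minus placebo) of each of the 94 channel genes tested, by class, with its limma standard error; blue points fell, red points rose, grey points did not pass, and black bars are class medians. All 7 calcium channel pores lie below 0, the 4 alpha2delta genes lie close to 0, and the 2 red points are Kcnj8 and Kcnt2; with the array median subtracted every point moves up by 0.14.

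The split of these calls depended on how the arrays were scaled. Subtracting each array's median adds 0.14 to every brain change, which moved the median over all genes from -0.02 to 0.12. On that scale 5 channel genes were lower, against 3.72% of all genes: Cacna1a, Kcnc1, Kcnj6, Kcnk9 and Kcnt1, all among the 24. The count of higher genes became 11, against 32.6% of all genes, namely Kcnt2, Kcnj8, Kcne1l, Kcnip1, Kcnip4, Kcnj10, Kcnj16, Kcnk2, Kcnmb2, Kcnmb4 and Scn7a. None of the 24 genes could become higher, because each had fallen by more than the 0.14 added. The channel median was then -0.01, 0.13 below the median of all genes. This gap is the same under either scaling because the same amount is added to every gene.

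**Figure D2:**
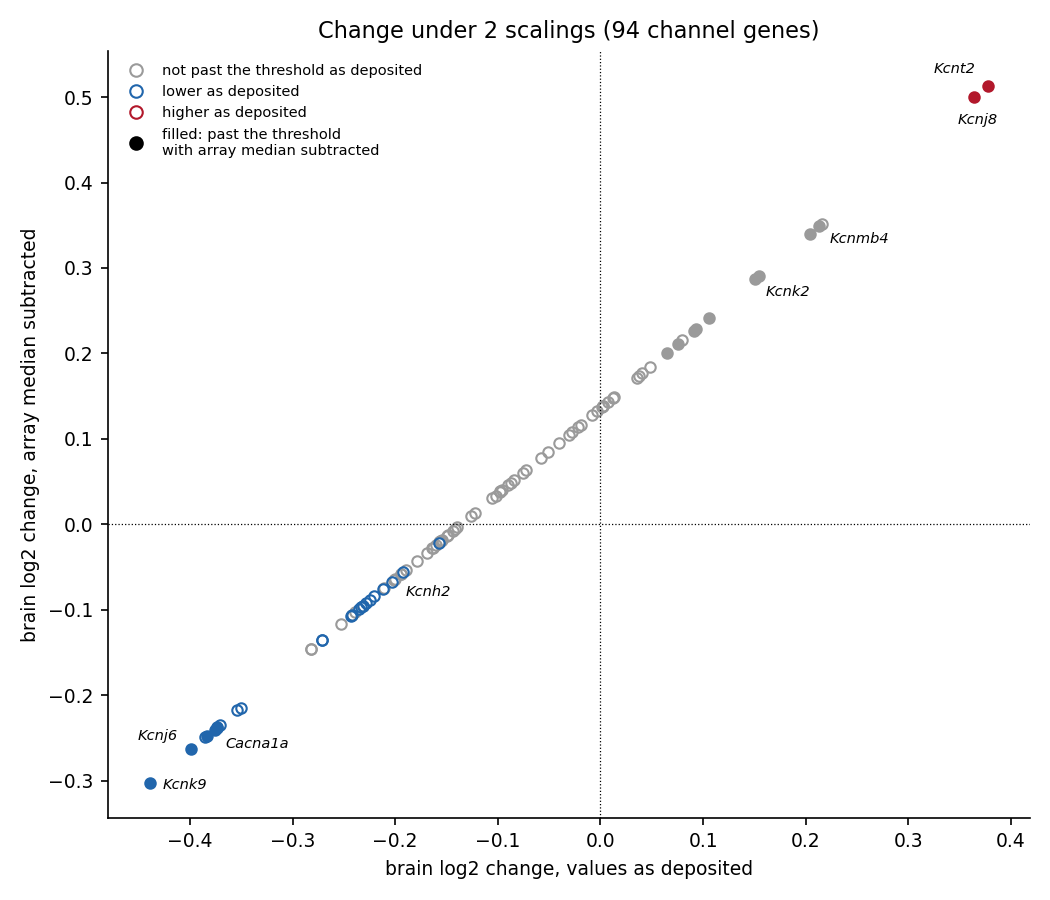
Brain log2 change of the 94 channel genes with the values as deposited (x axis) and with each array's median subtracted (y axis); colours give the call as deposited and filled points passed on the second scale. Cacna1a, Kcnc1, Kcnj6, Kcnk9 and Kcnt1 are filled blue points at the lower left, and 9 grey points from 0.06 to 0.21 as deposited are filled on the second scale.

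Calcium channel pores had the lowest class median, -0.28. Cacna1a, the P/Q-type pore that triggers transmitter release at most central synapses, ran from 10.68 through a median of 10.75 to 11.04 on the placebo arrays and from 9.76 through 10.46 to 10.82 on the haloperidol arrays. The placebo arrays lay close together, 8 of 10 haloperidol arrays lay below all of them, and the 2 others lay within their range. The mean fell from 10.79 ± 0.12 to 10.41 ± 0.32 (SD, n = 10 each), a change of -0.38 (SE 0.10, limma adjusted p = 0.00959), or -0.24 with the array median subtracted (adjusted p = 0.0369).

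The 3 other high-voltage-activated pores that were tested, Cacna1b, Cacna1c and Cacna1e, also fell. Cacna1c, the L-type pore of brain and heart, had placebo values of 9.54 to 10.28 (median 9.69) and haloperidol values of 8.81 to 9.92 (median 9.41), with 7 haloperidol arrays below every placebo array. It fell by 0.39 (SE 0.119, limma adjusted p = 0.0195), and without placebo 1L, haloperidol 4N and haloperidol 4T it was at -0.27 (adjusted p = 0.0719). Cacna1e, the R-type pore, fell by 0.35 (SE 0.099, adjusted p = 0.0118), with 6 haloperidol arrays below every placebo array. Cacna1b, the N-type pore of presynaptic terminals, fell by 0.27 (SE 0.087, adjusted p = 0.0232). The T-type pores, which open at low voltage and carry rebound bursts in the thalamus, had changes of -0.28 for Cacna1g (adjusted p = 0.0526), -0.24 for Cacna1i (0.110) and -0.19 for Cacna1h (0.158) in limma, none of them past the threshold, although Cacna1g passed in 5 of the 20 single-array omissions.

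The auxiliary calcium channel genes differed by subunit. Cacnb4, a beta subunit that binds the pore from inside the cell, had the smallest SD of the 24 genes in both groups, at 11.21 to 11.34 (median 11.27) with placebo and 10.99 to 11.27 (median 11.10) with haloperidol, with 8 haloperidol arrays below every placebo array. It fell by 0.16 (SE 0.044, limma adjusted p = 0.0115), but by 0.02 with the array median subtracted, where its adjusted p was 0.755. Cacnb1, the other beta gene tested, was at -0.14 (adjusted p = 0.167). The alpha2delta genes carry the pore to the membrane and include the gabapentin targets Cacna2d1 and Cacna2d2. Their changes were -0.02 for Cacna2d1, 0.01 for Cacna2d3, 0.00 for Cacna2d2 and -0.01 for Cacna2d4. Of these genes 0 of 4 had an unadjusted p under 0.05 in limma, against 5526 of all 12547 genes tested in brain. With the array median subtracted the 4 alpha2delta changes were positive (median 0.13) and did not pass. Cacng3, a TARP that traffics AMPA receptors, fell by 0.23 (SE 0.088, adjusted p = 0.0479), a call lost in 14 of the 20 single-array omissions, with an adjusted p of up to 0.0957 without haloperidol 4N (-0.20). Cacng7 was at -0.10 (adjusted p = 0.166), and the stargazin gene Cacng2, which also encodes a TARP, at -0.04 (adjusted p = 0.636).

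**Figure D3:**
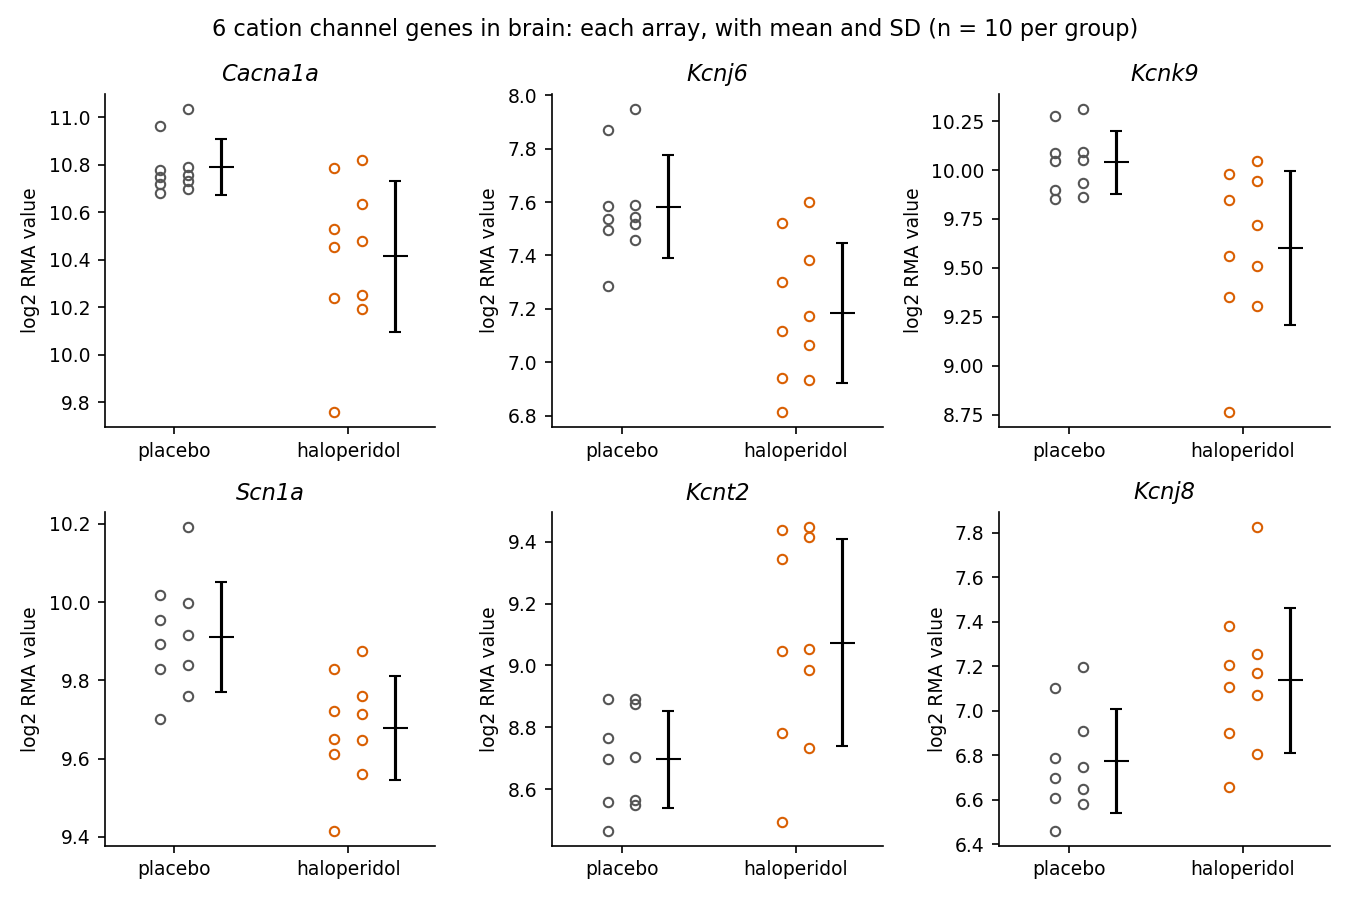
Log2 values of 6 channel genes on each brain array (open circles, placebo grey and haloperidol orange), with the group mean and SD beside them (n = 10 per group); the y axes differ. Haloperidol arrays reach below the placebo range for Cacna1a, Kcnj6, Kcnk9 and Scn1a and above it for Kcnt2 and Kcnj8, and the groups overlap in all 6 genes; with the array median subtracted the Scn1a difference no longer passed.

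Voltage-gated potassium channel pores leaned down as a class, with 26 of 29 changes negative and a median of -0.15, which became -0.01 with the array median subtracted. Kcnc1, the Kv3.1 pore of fast-spiking neurons, ran from 9.48 to 9.93 (median 9.67) with placebo and from 8.72 to 9.75 (median 9.29) with haloperidol, and 7 haloperidol arrays lay below every placebo array. It fell by 0.37 (SE 0.103, limma adjusted p = 0.0110), and it was the only Kv alpha gene of 29 that also passed on the median-subtracted scale. Kcna1, the Kv1.1 pore of axons, was tightly grouped with placebo, at 10.73 to 10.86, and spread from 10.14 to 10.84 with haloperidol. It fell by 0.23 (SE 0.076, adjusted p = 0.0275), a call lost without haloperidol 3B (-0.19, adjusted p = 0.0583), and also without 3R or 4N. Kcnq3, an M-current pore that restrains repeated firing, fell by 0.27 (SE 0.099, adjusted p = 0.0409), a call lost in 14 of the 20 single-array omissions, at -0.23 (adjusted p = 0.0845) without haloperidol 3B.

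The Kcnh family, to which Kcnh2 belongs, gave 3 of the 6 falls of this class. Kcnh4, of the Elk branch, fell by 0.37 (SE 0.106, limma adjusted p = 0.0130), with placebo values of 6.70 to 7.84 (median 7.11) and haloperidol values of 6.60 to 7.20 (median 6.72). Its highest array, at 7.84, was placebo 1L, and without placebo 1L, haloperidol 4N and haloperidol 4T the change was -0.30 (adjusted p = 0.0325). Kcnh7, of the same Erg branch as Kcnh2, fell by 0.24 (SE 0.073, adjusted p = 0.0176), with 6 haloperidol arrays below every placebo array. Kcnh1, of the Eag branch, fell by 0.22 (SE 0.081, adjusted p = 0.0406), and its call was lost in 11 of the 20 single-array omissions, at -0.19 (adjusted p = 0.0838) without haloperidol 3B. Kcnh3, Kcnh5 and Kcnh8 were at -0.11, -0.10 and -0.13 (adjusted p of 0.300 or more).

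Kcnh2 itself did not pass. Its placebo arrays ran from 8.25 through 8.46 to 8.61 and its haloperidol arrays from 7.78 through 8.36 to 8.56. The lowest haloperidol arrays were 3B at 7.78, 4N at 7.85 and 2L at 8.01, 4 of 10 lay below every placebo array, and the others lay inside the placebo range. The mean was 8.46 ± 0.11 with placebo and 8.26 ± 0.29 with haloperidol (SD, n = 10 each), a change of -0.20 (SE 0.094, limma adjusted p = 0.103), and -0.06 with the array median subtracted (adjusted p = 0.612). Without placebo 1L and haloperidol 1R and 2N, the arrays highest in pituitary transcripts, the change was -0.25 and passed (adjusted p = 0.0457). In liver Kcnh2 was at 3.75 ± 0.28 with placebo and 3.79 ± 0.26 with haloperidol (SD, n = 9 each), below the limit for testing of 3.92, with 12 of 18 arrays under that limit.

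Other channel genes known from the heart were measured in brain too. The Kv4.2 pore gene Kcnd2 ran from 10.87 to 11.15 with placebo and from 10.28 to 11.19 with haloperidol, with a change of -0.23 (limma adjusted p = 0.0694). Its auxiliary subunit gene Kcnip2 was at -0.02 and the inward rectifier gene Kcnj2, which sets the resting potential of heart muscle, at 0.01 (adjusted p of 0.859 and 0.932). Kcnq1 and Kcne1, the pore and auxiliary subunit of the slow cardiac current, were too dim to be tested in brain, at 5.40 and 4.11 with placebo. Kcnq1 was tested in liver, at 5.48 ± 0.16 with placebo and 5.51 ± 0.095 with haloperidol (SD, n = 9 each), a change of 0.04 (limma adjusted p = 0.882). The heart muscle marker Tnnt2 was at -0.02 in brain (adjusted p = 0.858).

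The Kv auxiliary genes had a median of 0.04 and 5 of 8 changes above 0. An unadjusted p under 0.05 in limma was found for 1 of 8, against 5526 of all 12547 genes tested in brain. Kcnab3, a Kv beta subunit, was at -0.20 (SE 0.079, adjusted p = 0.0549). Kcne1l, a single-pass subunit, was at 0.20 (SE 0.104, adjusted p = 0.134), and its lowest array was placebo 1L at 5.74. The KChIP genes Kcnip1, Kcnip3 and Kcnip4, whose calcium-binding proteins attach to Kv4 pores, were at 0.08, 0.04 and 0.11. Of these, Kcnip1 and Kcnip4 passed as higher with the array median subtracted, as did Kcne1l. That made 3 of the 8 Kv auxiliary genes, on a scale where 32.6% of all genes were called higher.

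Inward rectifiers moved in both directions. Kcnj6 encodes GIRK2, a channel opened by G proteins downstream of D2 and other inhibitory receptors, and had the smallest p of the 24 genes that fell. Its placebo arrays ran from 7.29 through 7.54 to 7.95 and its haloperidol arrays from 6.81 through 7.14 to 7.60, with 6 haloperidol arrays below every placebo array. It fell by 0.40 (SE 0.097, limma adjusted p = 0.00647) and by 0.26 with the array median subtracted (adjusted p = 0.0195). Kcnj9, which encodes the partner subunit GIRK3, ran from 8.59 to 9.02 (median 8.89) with placebo and from 7.93 to 8.88 (median 8.44) with haloperidol, and fell by 0.37 (SE 0.108, adjusted p = 0.0145). On the median-subtracted scale Kcnj9 was at -0.23 (adjusted p = 0.0785). Kcnj3, the GIRK1 gene, was at -0.06 (adjusted p = 0.449), and the GIRK4 gene Kcnj5 was too dim to be tested.

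Kcnj8, the pore of the ATP-sensitive channel of pericytes and vascular smooth muscle, rose. It ran from 6.46 through 6.72 to 7.19 with placebo and from 6.66 through 7.14 to 7.82 with haloperidol. Only 4 haloperidol arrays lay above every placebo array, led by 3R, so most of the values overlapped. The change was 0.36 (SE 0.117, adjusted p = 0.0232 in limma) and 0.50 with the array median subtracted (adjusted p = 0.00364). Of 4 smooth muscle and pericyte markers, Rgs5 (0.63, adjusted p = 0.00406) and Tagln (0.70, adjusted p = 0.00498) also rose, and Acta2 (0.19) and Myh11 (0.14) did not pass. The mean of the 4 markers ran from 7.01 to 7.86 over the placebo arrays and from 7.30 to 8.51 over the haloperidol arrays, and their part in the Kcnj8 result was not tested. Kcnj11, the neuronal counterpart of Kcnj8, was at -0.16 (adjusted p = 0.105). The glial genes Kcnj10 and Kcnj16, whose channels clear potassium from around neurons, were at 0.06 and 0.09 and passed as higher only on the median-subtracted scale (0.20 and 0.23). Astrocyte markers held 0 of 5 that passed with the values as deposited and 2 of 5 on that scale, where 32.6% of all genes were called higher.

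Two-pore channels carry background potassium current, and 7 of the 9 tested had negative changes (median -0.21). Kcnk9, the TASK-3 gene, had the largest change of any channel gene tested in brain with the values as deposited. It was at -0.30 with the array median subtracted, where Kcnt2 lay farthest from 0 at 0.51. It ran from 9.85 through 10.05 to 10.31 with placebo and from 8.76 through 9.64 to 10.04 with haloperidol, and 7 haloperidol arrays lay below every placebo array. The mean fell from 10.04 ± 0.16 to 9.60 ± 0.39 (SD, n = 10 each), by 0.44 (SE 0.124, limma adjusted p = 0.0124), and the lowest array was haloperidol 4N. It fell by 0.41 without 3B, where its adjusted p was highest among the fits that left out 1 array (0.0270). Kcnk3, the related TASK-1 gene, fell by 0.20 (SE 0.075, adjusted p = 0.0433), a call lost in 12 of the 20 single-array omissions, at -0.16 (adjusted p = 0.0811) without haloperidol 4N. Kcnk6 fell by 0.35 (SE 0.116, adjusted p = 0.0262), with the call lost without haloperidol 3B (-0.32, adjusted p = 0.0526) and without 4N. Kcnk12 and Kcnk1 fell by 0.24 and 0.21 (adjusted p of 0.0286 and 0.0279), and their calls were lost in 5 and 3 of the 20 fits. The TREK-1 gene Kcnk2, whose channel responds to stretch and lipids, was at 0.15 (SE 0.061, adjusted p = 0.0638), and at 0.29 with the array median subtracted (adjusted p = 0.00694).

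The sodium-activated channels, Slack and Slick, moved apart. Kcnt1, the Slack gene, ran from 9.64 through 9.80 to 10.06 with placebo and from 8.88 through 9.46 to 9.89 with haloperidol, with 7 haloperidol arrays below every placebo array. It fell by 0.38 (SE 0.104, limma adjusted p = 0.0103). Kcnt2, the Slick gene, ran from 8.47 through 8.70 to 8.89 with placebo and from 8.49 through 9.05 to 9.45 with haloperidol, with 7 haloperidol arrays above every placebo array. It rose by 0.38 (SE 0.109, adjusted p = 0.0138), so these close relatives had changes of like size and opposite sign. Both passed in the same direction with the array median subtracted (-0.25 and 0.51, adjusted p of 0.0377 and 0.00290) and without placebo 1L, haloperidol 4N and haloperidol 4T (-0.30 and 0.37, adjusted p of 0.0430 and 0.0302). With the first principal component as covariate Kcnt2 was at -0.037 and did not pass.

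Calcium-activated channels, which shape the pause after a spike, gave further falls. Kcnma1, the BK pore, ran from 10.20 to 10.53 (median 10.37) with placebo and from 9.89 to 10.46 (median 10.07) with haloperidol, and fell by 0.22 (SE 0.070, limma adjusted p = 0.0221). Kcnn2, the SK2 gene, lay below the placebo mean on 10 of 10 haloperidol arrays and fell by 0.19 (SE 0.060, adjusted p = 0.0204). Without placebo 1L, haloperidol 4N and haloperidol 4T these genes were at -0.18 (adjusted p = 0.0667) and -0.13 (adjusted p = 0.106). Kcnmb4, the neuronal BK beta subunit, was at 0.21 (SE 0.091, adjusted p = 0.0753), and at 0.35 with the array median subtracted (adjusted p = 0.0130), opposite in sign to the pore. Kcnn3 and Kcnn1 were at -0.18 and -0.15 (adjusted p of 0.0980 and 0.131).

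Sodium channel pores held 2 falls. Scn1a, the Nav1.1 gene of inhibitory interneurons and the gene mutated in Dravet syndrome, ran from 9.70 through 9.90 to 10.19 with placebo and from 9.42 through 9.68 to 9.87 with haloperidol. All 10 haloperidol arrays lay below the placebo mean, although 5 of them lay inside the placebo range. It fell by 0.23 (SE 0.064, limma adjusted p = 0.0111), and was at -0.10 with the array median subtracted (adjusted p = 0.288). Scn8a, the Nav1.6 gene of the axon initial segment, ran from 10.50 to 10.73 with placebo and from 9.98 to 10.86 with haloperidol, and its highest array was haloperidol 4L. It fell by 0.24 (SE 0.085, adjusted p = 0.0339), a call lost in 8 of the 20 single-array omissions, at -0.20 (adjusted p = 0.0708) without haloperidol 3B. Scn2a, the Nav1.2 gene, was at -0.14 (adjusted p = 0.0674), and its 14 probes had changes from -0.26 to 0.10. The beta subunit genes Scn2b, Scn4b and Scn3b were at -0.16, -0.16 and -0.07. Of these genes 0 of 3 had an unadjusted p under 0.05 in limma, against 5526 of all 12547 genes tested in brain. Scn7a, a sodium-sensing channel gene of glia, was at 0.15 (adjusted p = 0.195) and passed as higher on the median-subtracted scale (0.29).

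The falls were carried unevenly by the haloperidol arrays. Of the 24 genes that fell, all 24 lay below the placebo mean on haloperidol 1B, 2L, 2N, 2T, 3B, 3R and 4N, 20 did on 4T, 11 on 1R and 10 on 4L. Haloperidol 4N was the lowest of all brain arrays in 17 of the 24 genes and 3B in 5. Over all 94 channel genes, the median deviation from the placebo mean was -0.33 on 3B, -0.30 on 4N, -0.24 on 3R, -0.21 on 2L, -0.20 on 2T and -0.16 on 1B. It was -0.055 on 2N, -0.02 on 1R, 0.07 on 4T and 0.08 on 4L, so 4 of 10 haloperidol arrays lay within the placebo range of -0.15 to 0.09.

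**Figure D4:**
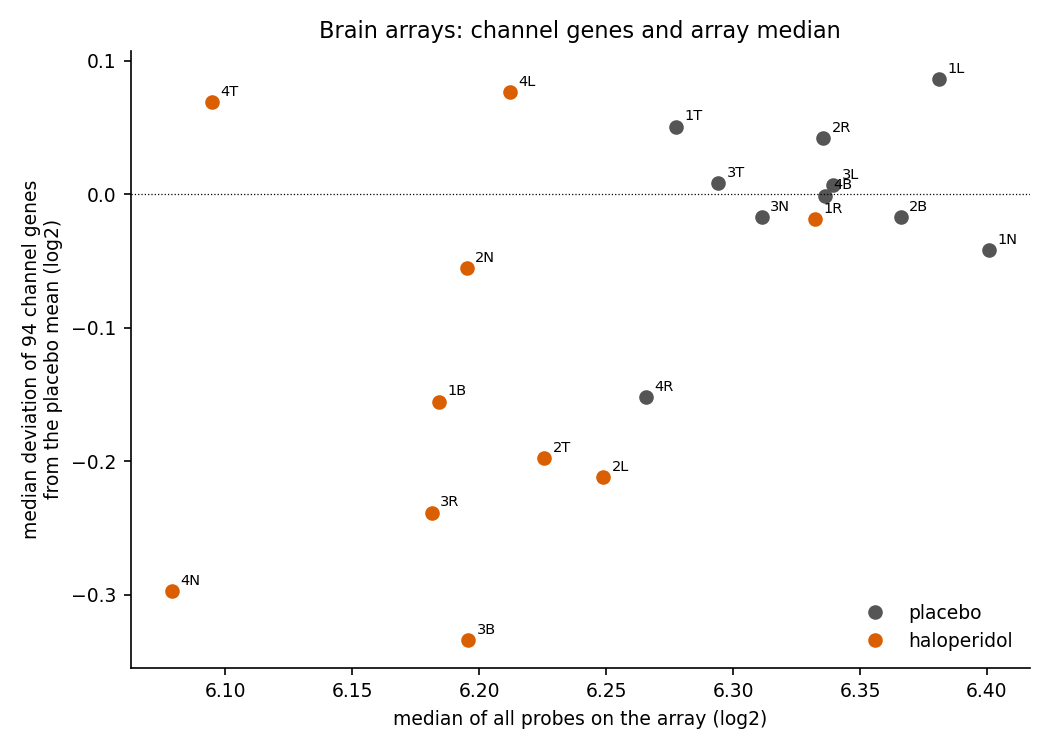
Each brain array by the median of all its probes (x axis, log2) and the median deviation of the 94 channel genes from the placebo mean (y axis, log2), labelled with the tag in its title. Haloperidol 3B and 4N lie lowest at -0.33 and -0.30, while haloperidol 4T and 4L lie above 0 among low array medians.

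Leaving out haloperidol 3B lowered the count of falls from 24 to 15, and leaving out haloperidol 1R raised the count of rises from 2 to 5. The shares over all genes in these 2 fits are not given here, so the shifts are not particular to channel genes on this evidence. The calls of 15 of the 24 genes, and of Kcnt2 and Kcnj8, held in each of the 20 single-array omissions. Without placebo 1L, haloperidol 4N and haloperidol 4T, 17 channel genes fell (against 10.7% of all genes) and 2 rose (against 9.48%). Of the 17, 15 were among the 24, the others were Kcnj12 and Kcnk10, and the 2 that rose were again Kcnt2 and Kcnj8.

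Array-wide differences moved with the result. With the array median as a covariate in limma, 0 of 94 channel genes passed and the median change was -0.08. An unadjusted p under 0.05 was found for 4 of the 94, against 550 of all 12547 genes. With the first principal component as covariate 0 channel genes passed and the median change was 0.03. There 4 of the 94 had an unadjusted p under 0.05, against 913 of all 12547 genes. Over all genes 0 passed with either covariate, both of which differ between the groups, and a Wilcoxon test without covariates called 21 channel genes. The tags in the sample titles begin with a digit whose meaning the labels do not give. Within digits 1, 2, 3 and 4 the channel median was -0.13, -0.16, -0.28 and 0.06, against 0.01, -0.06, -0.07 and 0.03 over all genes tested. Negative changes were found in 70, 81, 76 and 37 of the 94 channel genes, so the channel median of digit 4 did not share the direction of the others. Of the 24 genes that fell, which were picked from these same arrays, 24, 24, 24 and 23 had negative changes within the 4 digits.

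Channel genes are long, and length moved with the calls over all genes. The median span of the gene in RefSeq was 25.2 kb over all genes tested, 60.5 kb over the channel genes tested and 165 kb over the 24 that fell. Over all genes, the share that fell was 11.1% under 30 kb, 18.5% from 30 to 100 kb and 23.1% over 100 kb. For channel genes it was 4 of 30 (13.3%), 7 of 25 (28%) and 13 of 39 (33.3%) in the same bins. The part of gene span in the result was not tested.

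Channels and channel partners outside the naming rule were examined as a list of 34 genes, of which 32 were measured and 27 tested in brain. Of these, 11 fell and 3 rose, against 15.2% of all genes in each direction, with a median of -0.13. The falls included genes that anchor channels at the axon initial segment, with Ank3 (ankyrin G) at -0.25 and Sptbn4 (beta-IV spectrin) at -0.43. They also included Unc79 (-0.33) and Unc80 (-0.27), which encode partners of the sodium leak channel, while the gene of its pore, Nalcn, was at 0.08 (limma adjusted p = 0.192). The pacemaker gene Hcn3 (-0.33), the ryanodine receptor gene Ryr2 (-0.41) and the lysosomal channel gene Tpcn2 (-0.53) fell. The rises were Fgf13 (0.26), whose protein binds sodium channels, Dpp10 (0.24), a partner of Kv4 pores, and Cntnap2 (0.15), which clusters Kv1 channels beside nodes of Ranvier. Dpp6, the sister gene of Dpp10, fell by 0.15. With the array median subtracted 3 of the 27 were lower and 4 higher, against 3.72% and 32.6% of all genes. In liver 0 of 12 tested passed in limma.

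In liver, 37 channel genes were bright enough to be tested and 0 passed in limma, as did 0 of all 12547 genes (0%), where the smallest adjusted p was 0.251. An unadjusted p under 0.05 was found for 3 of the 37 (8.11%), against 10.5% of all genes. A Wilcoxon test also passed 0, with 3 at an unadjusted p under 0.05, against 1127 of all 12547 genes. The 3 in limma were all two-pore channels. Kcnk5, an acid-sensitive channel gene of epithelia, was the brightest of them, at 7.47 to 8.84 (median 8.48) with placebo and 7.21 to 8.41 (median 7.85) with haloperidol. Its change was -0.41 (SE 0.171, limma adjusted p = 0.421), and the groups overlapped over most of their range. Kcnk10 was at -0.34 (limma adjusted p = 0.423) and Kcnk15 at -0.26 (0.401), the latter close to the limit for testing.

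The other liver channel genes of smallest p were Kcnq3 (0.14), Kcnj11 (-0.17), Kcne3 (0.26), Cacna1a (0.15), Kcnip3 (0.17), Cacng4 (-0.15) and Kcnn1 (-0.13), with limma adjusted p from 0.536 to 0.679. Kcnn2, one of the brighter channel probes in liver, was at 7.59 ± 0.20 with placebo and 7.61 ± 0.092 with haloperidol (SD, n = 9 each), a change of 0.02 (limma adjusted p = 0.948). Of the 37 changes 18 were negative, with a median of 0.02 against -0.02 over all genes. Genes tested in liver only were Cacng1, Kcne3, Kcnj14, Kcnk15, Kcnk5, Kcnn4 and Kcnq1.

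The liver change was set against the brain change for the 30 channel genes tested in both tissues. It differed for 3 of them (10%), against 23% of the 10869 genes tested for this difference. Cacna1a was at 0.15 in liver and -0.38 in brain, a difference of 0.52 (SE 0.148, limma adjusted p = 0.0108). Kcnq3 was at 0.14 and -0.27, a difference of 0.41 (SE 0.130, adjusted p = 0.0212), and Kcnj8 at -0.09 and 0.36, a difference of -0.46 (SE 0.154, adjusted p = 0.0286). On the median-subtracted scale the differences were 0.30 for Cacna1a (adjusted p = 0.0614) and 0.19 for Kcnq3 (0.297), so both calls were lost, and -0.68 for Kcnj8 (0.00148), which passed. In liver Cacna1a (4.36 with placebo) and Kcnq3 (3.99) were dim. The next smallest p belonged to Kcnt1 (0.40, adjusted p = 0.0913) and Kcnk3 (0.28, adjusted p = 0.0943).

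**Figure D5:**
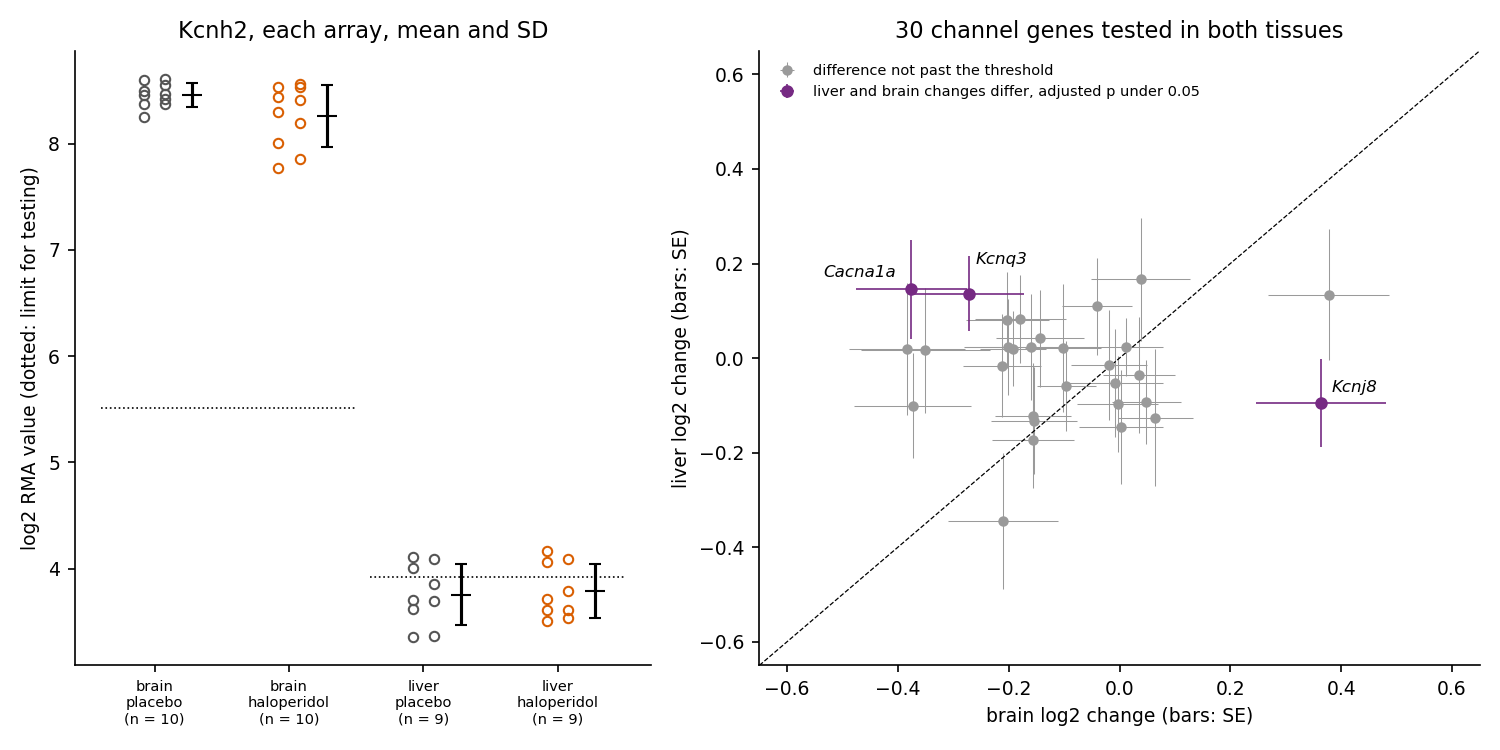
Left, log2 values of Kcnh2 on each array by tissue and treatment with the group mean and SD, where dotted lines mark the limit for testing in each tissue and levels are not comparable between tissues; right, brain and liver log2 changes of the 30 channel genes tested in both, with limma standard errors and a dashed line of equal change. Kcnh2 groups overlap in both tissues, and the 3 purple genes, Cacna1a, Kcnq3 and Kcnj8, lie far from the line; with the array median subtracted Kcnj8 alone of them passed.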

How the data were processed

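RNA from whole brain and liver was hybridised to Affymetrix arrays. RMA, run in Affymetrix Expression Console, gave the log2 values that the authors deposited (tools per the submitters' processing notes, without versions). RMA scales arrays toward a common distribution, so a change in total RNA is not visible, although the deposited distributions were not identical. The tissues' distributions differed by up to 1.42 log2 units, while arrays lay within 0.21 (brain) and 0.23 (liver) of their tissue's mean distribution, so levels were compared within a tissue only. The number of arrays limits the precision. The array's genome build is not given in the sources used here.

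Of 35556 probes, 21218 named 1 gene in the platform annotation of GEO (possibly dated), and the probe of highest mean stood for a gene. The symbols of 8 probes that name a channel gene beside another gene were not used, and 6 channel genes had several usable probes. The probes of Kcnd3 and Scn2a disagreed in sign. In each tissue the dimmest 33.3% of genes were left out. Two-sided comparisons of groups used lmFit and eBayes of limma 3.58.1 under R 4.3.3, with Benjamini-Hochberg adjustment, and the tissue difference came from a fit of 38 arrays. Scripts were tested on simulated data. The genes and lists were chosen with earlier results of these data known.

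Genes named with values were Kcnh2, the 5 largest rises and falls that passed, the 2 of smallest p per class in brain, the 10 of smallest p in liver, the 5 of smallest p for the tissue difference and a cardiac list. All other channel genes with values, the partner genes and the markers were named after their values were seen. Alternatives covered the filter, the scaling, array-wide covariates, the tag digit, the variance model, array weights, the probe rule, a Wilcoxon test and left-out arrays.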

Additional observations from a re-analysis of the deposited data

Results flagged for a closer look

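Single arrays stood far from the rest of their group in 7 of the 118 groups of values examined, where chance gives about 1 in 20. Placebo 1L, a brain array rich in pituitary transcripts, was lowest of its group for Kcne1l (5.74, others 6.22 to 6.57) and Kcnk10 (8.20, others 8.76 to 8.96), and highest for Kcnip2 (9.68, others 8.89 to 9.30). In liver, Kcnh4 was low on placebo 3N (3.71, others 4.17 to 4.49) and high on haloperidol 2T (4.75, others 3.86 to 4.17). Kcnip3 was low on haloperidol 4N (3.53, others 4.17 to 4.45), and Kcnn1 on placebo 3T (5.05, others 5.40 to 5.54).

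The change with haloperidol differed between liver and brain, by the test of the difference in limma, for Cacna1a (0.52), Kcnq3 (0.41) and Kcnj8 (-0.46). Kcnj8 alone of these passed with the array median subtracted (-0.68, adjusted p = 0.00148), with Cacna1a at 0.30 (0.0614) and Kcnq3 at 0.19 (0.297).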

How the results depend on the processing

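The counts of brain calls rested on the scaling and on array-wide covariates. Each of the 24 falls was larger than the shift from subtracting the array median, so none could become a called rise there. Counts of channel genes that fell and rose were 5 and 11 with the array median subtracted, 0 and 0 with the array median as covariate, and 0 and 0 with the first principal component as covariate. The rises alone numbered 7 after quantile normalization (2531 of 12547 over all genes), 1 when the dimmest 50% of genes were dropped (1665 of 9410) and 4 without placebo 1L and haloperidol 1R and 2N (2304 of 12547). Over the other alternatives the falls ran from 17 to 34. Leaving out 1 array gave 15 to 36 falls and 2 to 5 rises. Shares over all genes are not given for these ranges, so they are not read as particular to channel genes. The channel median became -0.010 with the array median subtracted and 0.035 with the component, and ran from -0.17 to -0.11 with 1 array left out. Kcnh2 was at 0.14 with the component and at -0.25 without placebo 1L and haloperidol 1R and 2N, and ran from -0.23 to -0.15 with 1 array left out.

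Subtracting the array median turned Cacna2d1 (0.12), Cacng7 (0.040) and Kcnip2 (0.11), and quantile normalization Cacna2d3 (-0.027). With the array median as covariate the signs of Cacna1c (0.063), Cacna2d3 (-0.0051), Kcne1l (-0.17), Kcnj2 (-0.26), Kcnip2 (0.072), Cacna1g (0.044), Cacna1h (0.012) and Cacna1i (0.049) turned. With the component those of Kcnt2 (-0.037), Kcnk9 (0.041), Cacna1c (0.098), Cacna1a (0.0035), Cacna1e (0.046), Cacnb1 (0.079), Cacng3 (0.035), Cacng7 (0.039), Kcnab3 (0.016), Kcnj9 (0.012), Scn8a (0.085), Scn2b (0.065), Scn4b (0.013), Kcnj2 (-0.14), Kcnd2 (0.12), Kcnip2 (0.20), Cacna1g (0.12), Cacna1h (0.15) and Cacna1i (0.21) turned. Kcnj2 also turned with the tag digit as a block (-0.0056), array weights (-0.12) and without placebo 1L, haloperidol 4N and haloperidol 4T (-0.054), and Kcnip2 without those arrays (0.030) and without placebo 1L and haloperidol 1R and 2N (0.0040). With 1 array left out, Cacna2d1 ran from -0.054 to 0.011, Cacna2d3 from -0.0085 to 0.038, Kcnip2 from -0.058 to 0.030 and Kcnj2 from -0.040 to 0.051. The causes were not tested.

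Cacna1g and Kcnab3 passed in 5, Kcnd2 in 4, Scn2b in 2, and Kcne1l and Cacna1i in 1 of the 20 fits that left out 1 brain array. In liver 0 channel genes passed under every alternative run, while Kcnq1 turned with the array median subtracted (-0.049), quantile normalization (-0.039) and the array median as covariate (-0.029). With the array median subtracted the tissue differences of Cacna1a (0.30, limma adjusted p = 0.0614) and Kcnq3 (0.19, 0.297) no longer passed. With no filter on dim genes the tissue difference passed for 8 of 120 channel genes, against 2297 of 18820 over all genes. It passed for 3 or 4 channel genes with 1 array left out, where the share over all genes is not given here. Brain and liver arrays share 18 title tags whose meaning the labels do not give. Deviations of same-tag arrays correlated between -0.32 and 0.25 (median 0.0011) and 3 of 18 arrays correlated best with their own tag. With the tag as a replicate block, 3 channel genes passed for the tissue difference.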
